A study of Mus musculus with 7 samples.

Results

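Ptcra, Rag1, Rag2 and Dntt are the genes with which an early thymocyte builds and tests its first T cell receptor (TCR) chain, and they were followed by symbol as 4 of the 32286 features counted by single-cell RNA sequencing. The data are numbers of transcript molecules, told apart by unique molecular identifiers (UMIs), in sorted double-negative (DN) mouse thymocytes, in 7 libraries with 1 library per group. Of 90016 deposited barcodes, 71081 were used as thymocyte barcodes, which had at least 200 detected genes, at most 15% mitochondrial UMIs and at most 1 UMI of the B cell genes Cd79a, Cd79b and Ms4a1 together. C57BL/6 WT mice of 6 to 8 weeks, whose thymi were pooled and depleted of CD4+ and CD8+ cells with beads, gave 5 libraries: DN3a, the γδ− populations DN3b and DN4, and the γδ+ populations DN3b and DN4. C57BL/6 mice of the genotype Lat-/-TCRd-H2BEGFP gave DN3 γδ− and DN3 γδint, whose name marks an intermediate surface level of γδ TCR. Both of these libraries therefore carried the loss of LAT, an adaptor that relays TCR signals, and also a fluorescent reporter in the gene of the TCR δ chain that no WT library carried. The age of these mice is not given in the sources used here. Their cells were sorted from total thymocytes, without the bead depletion of the WT cells. The gates set some limits: DN3 cells were sorted as CD25+ and DN4 cells as CD25−, CD71 separated DN3b γδ− from DN3a cells, and the γδ+ cells were CD24+ and CD44low. Each library also held 500 spiked splenic B lymphocytes, which served here as a measure of background. No group had a replicate, so differences between groups carry no test and every interval below is a 95% interval for counting error alone.

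RAG1 and RAG2 together form the recombinase that cuts the TCR genes, and TdT, the product of Dntt, adds untemplated nucleotides where the cut ends are joined. Ptcra encodes pre-Tα, the invariant chain that pairs with a newly made TCR β chain to form the pre-TCR. In the textbook course, a DN3a cell that makes such a β chain is selected through the pre-TCR, divides and moves towards the double-positive stage, where the recombinase acts again on the TCR α genes, whereas a cell that makes a γδ TCR takes the γδ path.

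All 4 genes were annotated as protein-coding in mm10. Ptcra (ENSMUSG00000036858) lies on chromosome 17 from 46755663 to 46763712 on the minus strand, with 4 exons in its longest transcript. Rag1 (ENSMUSG00000061311; 2 exons) lies on chromosome 2 from 101638282 to 101649501 on the minus strand. Rag2 (ENSMUSG00000032864; 3 exons) lies on chromosome 2 from 101624718 to 101632529 on the plus strand, so that the ends of the recombinase genes face each other over a gap of 5752 bases. Dntt (ENSMUSG00000025014; 12 exons in its longest transcript) lies on chromosome 19 from 41029275 to 41059525 on the plus strand.

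The RefSeq promoter windows (GRCm38.p6, the assembly of mm10), from 250 bases before to 50 bases after each start, are shown because the levels of these genes moved together to different extents. Capitals mark the E-box CAGCTG, a letter pattern to which E proteins are known to bind, and TGGGAA, the core pattern of RBPJ, the DNA-binding partner of Notch. Both strands were searched.
Ptcra (chr17:46763663-46763962, minus strand): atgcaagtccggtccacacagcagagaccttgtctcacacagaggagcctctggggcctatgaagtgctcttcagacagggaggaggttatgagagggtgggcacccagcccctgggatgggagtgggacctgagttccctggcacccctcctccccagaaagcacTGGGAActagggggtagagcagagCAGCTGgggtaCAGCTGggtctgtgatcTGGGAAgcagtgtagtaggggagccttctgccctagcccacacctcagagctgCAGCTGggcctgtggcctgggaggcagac
Rag1 (chr2:101649483-101649782, minus strand): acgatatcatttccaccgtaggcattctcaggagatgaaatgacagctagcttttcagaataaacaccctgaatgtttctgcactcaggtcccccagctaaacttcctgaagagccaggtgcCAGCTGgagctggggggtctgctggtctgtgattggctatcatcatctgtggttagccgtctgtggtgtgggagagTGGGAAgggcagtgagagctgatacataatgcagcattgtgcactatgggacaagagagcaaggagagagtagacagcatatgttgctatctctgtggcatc
Rag2 (chr2:101624462-101624761, plus strand): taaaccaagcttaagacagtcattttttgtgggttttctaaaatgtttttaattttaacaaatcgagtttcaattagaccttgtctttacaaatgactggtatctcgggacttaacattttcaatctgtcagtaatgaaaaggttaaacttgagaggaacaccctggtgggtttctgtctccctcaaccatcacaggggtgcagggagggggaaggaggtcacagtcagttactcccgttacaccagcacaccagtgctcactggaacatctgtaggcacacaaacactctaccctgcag
Dntt (chr19:41029025-41029324, plus strand): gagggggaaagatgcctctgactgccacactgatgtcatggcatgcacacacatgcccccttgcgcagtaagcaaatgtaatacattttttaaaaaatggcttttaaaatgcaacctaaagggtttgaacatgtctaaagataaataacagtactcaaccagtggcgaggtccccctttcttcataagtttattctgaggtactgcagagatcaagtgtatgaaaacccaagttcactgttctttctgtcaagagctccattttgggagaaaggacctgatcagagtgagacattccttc
The Ptcra window held 3 CAGCTG and 2 TGGGAA, and the Rag1 window held 1 of each. Neither pattern was in the windows of Rag2 and Dntt. Of all 32851 windows of this length, 16.3% held CAGCTG and 25.6% held TGGGAA. The wider E-box CANNTG, which includes CAGCTG, was in all 4 windows (3 in Ptcra, 4 in Rag1, 2 in Rag2 and 3 in Dntt) and in 72.3% of all windows. TGTGGT, a core pattern of RUNX factors, was found 2 times in the Rag1 window, in no other of the 4, and in 16.8% of all windows. Such matches describe letters only.

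Thymocyte barcodes numbered 5274 to 18515 per library, and their median depth lay between 5737.5 UMIs in Lat-/- DN3 γδint and 18506 in DN4 γδ−. The libraries held 118 to 264 B barcodes each, with medians of 2447.5 to 3711 UMIs. Lat, the targeted gene, had 357 to 648 CPM (the usual counts-per-mega scale: UMIs of the gene over all UMIs, both summed over thymocyte barcodes) in the WT libraries, 4.83 (4.24 to 5.48) in Lat-/- DN3 γδ− and 0.899 (0.623 to 1.26) in Lat-/- DN3 γδint. Lat-/- DN3 γδint stood apart by its ribosomal-protein share, 18.2% of thymocyte UMIs against 27.7% to 33.7% elsewhere, and its B barcodes showed the same (19.6% against 29.8% to 36.2%). Of the thymocyte barcodes, 1155 (1.62%) had a sequence seen in more than 1 library. All 10 T cell markers were detected in every library, with summed levels of 6911 to 13661 CPM, and all 10 B cell markers summed to 114 to 282 CPM. The 5 double-positive markers summed to 84.7 to 997 CPM, of which Arpp21 had the most. The 6 pro-B and pre-B cell markers, listed because such cells also use the recombinase, summed to only 2.78 to 18.2 CPM. Plasmacytoid markers summed to 168 to 653 CPM, of which Bst2 had the most, while Siglech had at most 0.0793 CPM. Myeloid markers summed to 99.4 to 192 CPM, of which Cst3 had the most, while Csf1r had at most 0.243 CPM. Of the NK cell markers, Ncr1 was at 0 in every library and the sum was 0.0620 to 26.4 CPM, highest in DN4 γδ+. Erythroid markers summed to 0.149 to 170 CPM, highest in DN4 γδ−.

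Rag1, the catalytic subunit of the recombinase, had 461 CPM (456 to 467) in DN3a, 36.2 (35.6 to 36.9) in DN3b γδ−, 70.1 (69.1 to 71.2) in DN4 γδ−, 3.33 (3.08 to 3.6) in DN3b γδ+, 0.959 (0.744 to 1.22) in DN4 γδ+, 467 (461 to 473) in Lat-/- DN3 γδ− and 557 (550 to 565) in Lat-/- DN3 γδint. The order of the libraries was thus Lat-/- DN3 γδint, Lat-/- DN3 γδ−, DN3a, DN4 γδ−, DN3b γδ−, DN3b γδ+ and DN4 γδ+. In this order the intervals of DN3a and Lat-/- DN3 γδ− overlapped, and no other neighbours did. DN3b γδ− held 7.85% of the DN3a level, DN4 γδ− 15.2%, DN3b γδ+ 0.722% and DN4 γδ+ 0.208%.

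Rag2, the partner that RAG1 needs for cutting and that binds marked chromatin, was counted at 56.0 CPM (54.0 to 58) in DN3a, 11.3 (11 to 11.7) in DN3b γδ−, 15.8 (15.4 to 16.4) in DN4 γδ−, 0.904 (0.776 to 1.05) in DN3b γδ+, 0.329 (0.209 to 0.494) in DN4 γδ+, 87.2 (84.7 to 89.8) in Lat-/- DN3 γδ− and 81.5 (78.6 to 84.4) in Lat-/- DN3 γδint. It kept the order of Rag1 except at the top, where Lat-/- DN3 γδ− lay above Lat-/- DN3 γδint, and no neighbouring intervals overlapped. The γδ− libraries kept a larger part of the DN3a level than for Rag1, with 20.3% in DN3b γδ− and 28.3% in DN4 γδ−.

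Dntt had 1524 CPM (1513 to 1534) in DN3a, 797 (794 to 800) in DN3b γδ−, 699 (695 to 702) in DN4 γδ−, 189 (187 to 191) in DN3b γδ+, 178 (175 to 181) in DN4 γδ+, 1911 (1899 to 1923) in Lat-/- DN3 γδ− and 2446 (2431 to 2462) in Lat-/- DN3 γδint. It was the gene with the smallest spread: DN3b γδ− kept 52.3% of the DN3a level and DN4 γδ+ still 11.7%. Unlike the recombinase genes, it was lower in DN4 γδ− than in DN3b γδ−.

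Ptcra had 416 CPM (411 to 422) in DN3a, 63.1 (62.3 to 64.0) in DN3b γδ−, 63.3 (62.3 to 64.3) in DN4 γδ−, 7.41 (7.04 to 7.81) in DN3b γδ+, 1.10 (0.870 to 1.38) in DN4 γδ+, 716 (709 to 724) in Lat-/- DN3 γδ− and 898 (888 to 907) in Lat-/- DN3 γδint. The intervals of the γδ− libraries overlapped, at 15.2% of the DN3a level each, although in non-cycling barcodes (0 UMIs of the proliferation genes Mki67 and Top2a) DN4 γδ− had less (85.3 against 113 CPM, a log2 difference of -0.40, -0.56 to -0.24), whereas DN3b γδ+ held 1.78%. Both Lat-/- libraries lay above DN3a, at 172% and 216% of its level.

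**Figure D1:**
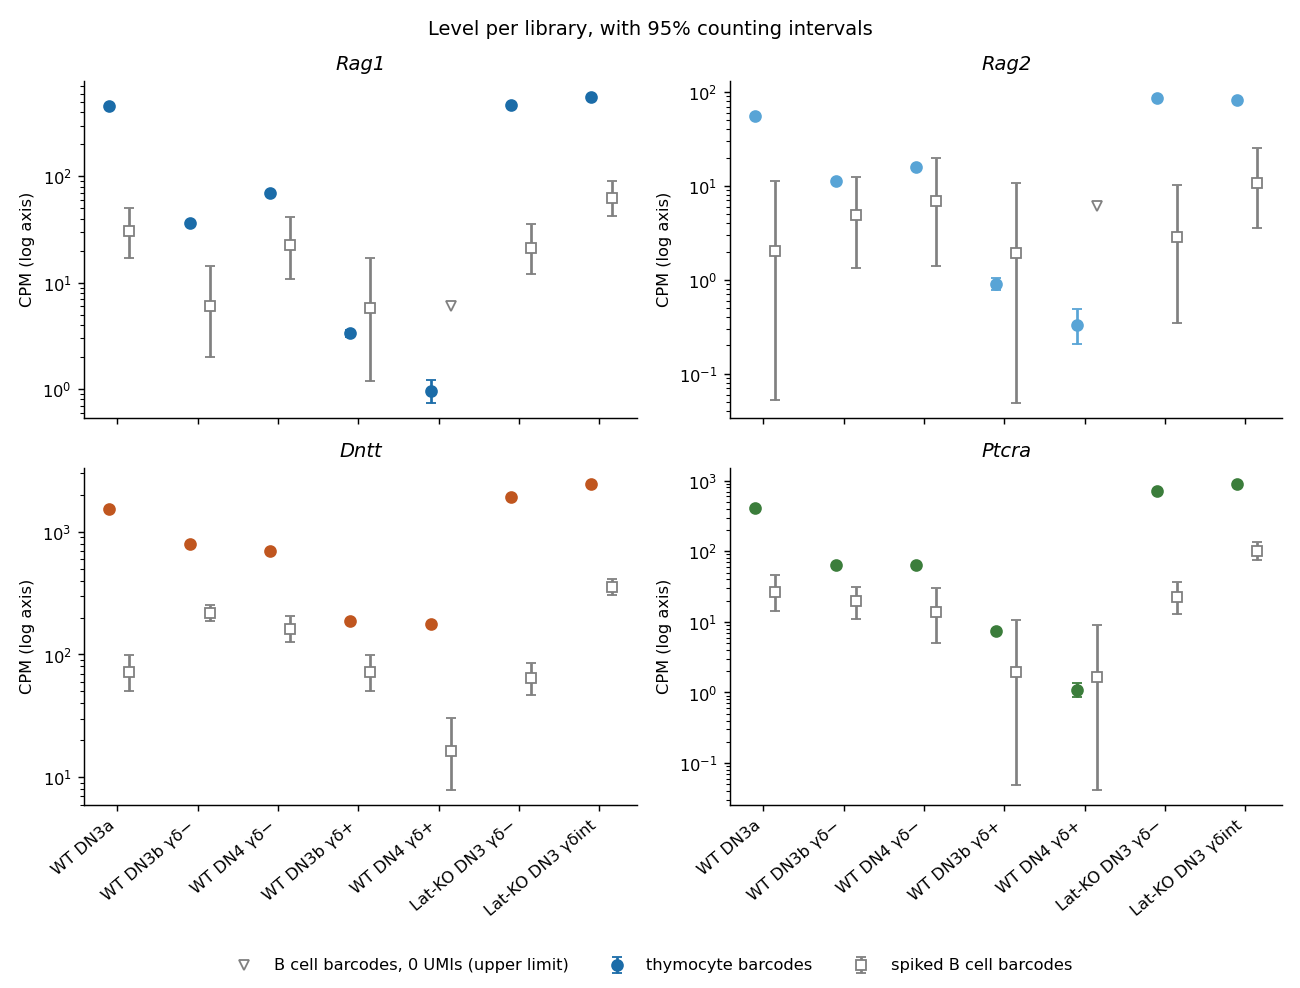
Level of each gene (CPM, log axis) in the thymocyte barcodes (filled circles) and the spiked B cell barcodes (open squares) of the 7 libraries, with 95% counting intervals. An open triangle is the upper limit where B barcodes had 0 UMIs. Ptcra and Rag1 were at 416 to 898 CPM in DN3a and the Lat-/- libraries, between 36.2 and 70.1 CPM in DN3b γδ− and DN4 γδ−, and at most 7.41 CPM in the γδ+ libraries, where the B barcodes reached the same range.

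The spiked B cells, mature cells in which these genes are not known to be in use, give a level measured in other cells of the same library, which includes free RNA and any B barcode that also held a thymocyte. B barcodes were shallower than thymocyte barcodes in every library. The part of this in the B barcode level, and in values after its subtraction, was not tested. Single B barcodes had up to 19 UMIs of Dntt and 10 of Ptcra in Lat-/- DN3 γδint, where the 90th percentiles were 2 and 1. In DN3b γδ− they had up to 16 of Dntt, where the 90th percentile was 1. The parts of free RNA and of doublets in the B barcode level were not tested. Their barcodes held 5.82 to 62.9 CPM of Rag1 in the libraries other than DN4 γδ+, where 0 UMIs were counted (a floor of 3 UMIs there is 4.93 CPM). Lat-/- DN3 γδint had the highest B barcode level of every gene, for Ptcra 102 CPM (74.9 to 136), which was 11.4% of its thymocyte level. In DN3a the B barcode level was 3.66% to 6.67% of the thymocyte level, and in the γδ− libraries 16.8% to 43.1%. For Rag2 the B barcode intervals of both γδ− libraries took in the thymocyte level. In DN3b γδ+ the B barcode intervals took in the thymocyte levels of Ptcra (1.94 CPM, 0.0491 to 10.8), Rag1 (5.82, 1.20 to 17.0) and Rag2 (1.94, 0.0491 to 10.8). These B barcode levels rest on 1, 3 and 1 UMIs in 131 barcodes, so the intervals are wide. In DN4 γδ+ the 3 genes were likewise not above what the B barcodes allow. The γδ+ sums of these 3 genes are therefore read as not distinguishable from the B barcode level, which itself rests on few UMIs. An exception within DN3b γδ+ was Ptcra in non-cycling barcodes (0 UMIs of Mki67 and Top2a), at 23.7 CPM (20.4 to 27.4). The UMIs were also not evenly spread in DN3b γδ+: of 12361 barcodes, 30 had 5 or more UMIs of Rag1 and 61 had 5 or more of Ptcra, with at most 16 and 21. The top 1% of barcodes held 71.2% of the Rag1 and 44.8% of the Ptcra UMIs, so these sums rest largely on few barcodes. Dntt was above the B barcode level, with 189 CPM against 71.8 (50.6 to 99) in DN3b γδ+ and 178 against 16.4 (7.88 to 30.2) in DN4 γδ+.

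CPM describes the share of a cell's RNA, and the libraries differed in UMIs per barcode. As mean UMIs per barcode, Rag1 was 3.64 in DN3a, 0.662 in DN3b γδ− and 1.32 in DN4 γδ−, and Ptcra was 3.28, 1.16 and 1.19. For Dntt the order turned on this scale: 12 UMIs in DN3a, 14.6 in DN3b γδ− and 13.1 in DN4 γδ−. Thymocyte barcodes had medians of 7275 UMIs in DN3a, 16948 in DN3b γδ− and 18506 in DN4 γδ−, and B barcodes of the same libraries 3592, 2447.5 and 3335. The parts of RNA content per cell and depth of sequencing were not tested.

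The share of barcodes with a UMI was compared after each barcode had been thinned to 4000 UMIs. Rag1 was seen in 70.8% of DN3a barcodes, 12.9% of DN3b γδ−, 23.1% of DN4 γδ−, 1.44% of DN3b γδ+, 0.202% of DN4 γδ+, 78.2% of Lat-/- DN3 γδ− and 77.6% of Lat-/- DN3 γδint. Ptcra was seen in 73.1%, 20.9%, 21.5%, 2.78%, 0.260%, 89.0% and 89.4% of them, in the same order. Rag2 was seen in 20.1%, 4.70%, 6.42%, 0.415%, 0.0577%, 28.8% and 28.1%, and Dntt in 99%, 94%, 91.2%, 40.6%, 38.1%, 99.3% and 99.9%. The shares followed the order of the levels except in the Lat-/- libraries, where Rag1 was seen in slightly fewer DN3 γδint than DN3 γδ− barcodes. Without thinning, the share for Rag1 was 80.6% in DN3a and 34.4% in DN3b γδ−, with medians of 7275 and 16948 UMIs, against 9.84% and 1.52% of their B barcodes, with medians of 3592 and 2447.5 UMIs. For Dntt the B barcode share was 6.99% to 56.2% without thinning.

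The number of the genes seen in a barcode followed their levels. At 4000 UMIs, a UMI of all 4 genes was found in 14.1% of DN3a barcodes, 0.702% of DN3b γδ−, 0.889% of DN4 γδ−, 0.101% of DN3b γδ+, 22.0% of Lat-/- DN3 γδ− and 23.8% of Lat-/- DN3 γδint. Conversely, 0 of the 4 genes were seen in 0.371% of DN3a and in at most 0.0220% of the barcodes of each Lat-/- library, but in 58.6% of DN3b γδ+ and 61.7% of DN4 γδ+. In the γδ− libraries most barcodes had a UMI of 1 of the genes (65.5% in DN3b γδ− and 55.7% in DN4 γδ−), and Dntt was the gene seen most often.

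**Figure D2:**
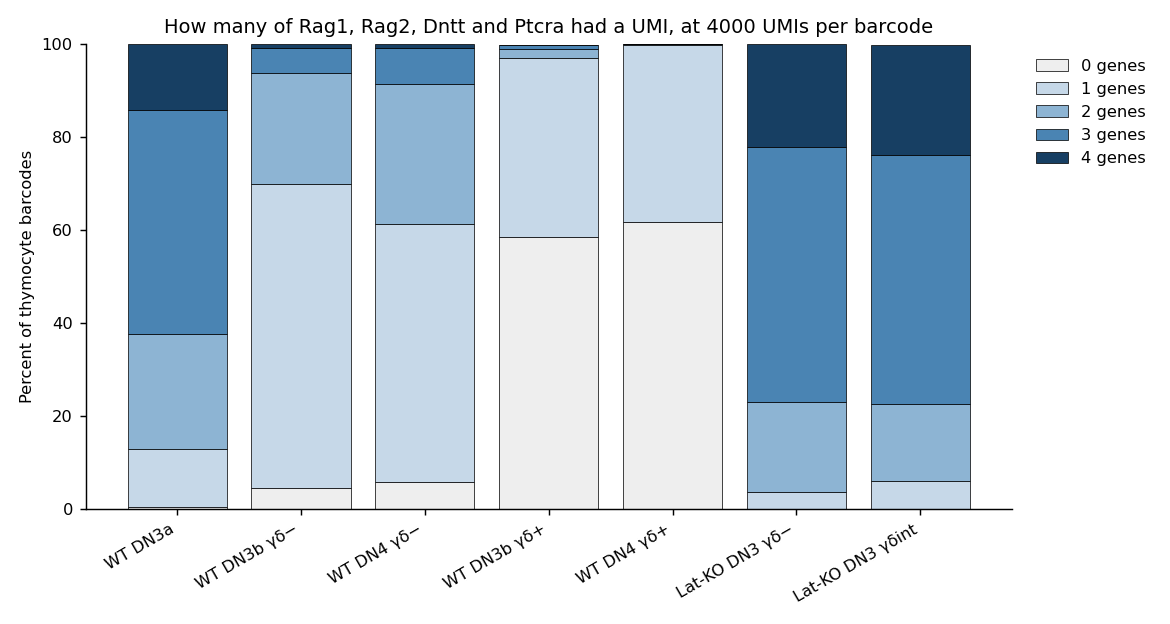
Share of thymocyte barcodes (percent) with a UMI of 0, 1, 2, 3 or 4 of the genes, after thinning to 4000 UMIs per barcode, for each library. Of DN3a barcodes 48.2% had 3 and 14.1% had 4 of the genes, and of DN3b γδ+ barcodes 0.765% and 0.101% did.

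The first comparison followed β-selection, from DN3a to DN3b γδ−. On the log2 scale DN3b γδ− differed from DN3a by -3.67 for Rag1 (-3.70 to -3.64), -2.30 for Rag2 (-2.37 to -2.23), -0.93 for Dntt (-0.95 to -0.92) and -2.72 for Ptcra (-2.75 to -2.69). So 3 of the 4 genes were lower by at least 2-fold, as were 14.6% of the 5968 genes with at least 20 CPM in either library. None was higher, against 11.4% of all genes. The median of the 4 genes was -2.51, while that of all genes was 0.01. The DN3b γδ− level of Rag2 lay within the B barcode interval, which bounds how low it can be read.
The difference was also present within each cycling class: among non-cycling barcodes Rag1 was 97.2 against 492 CPM, and among cycling barcodes (at least 2 UMIs of Mki67 and Top2a) 33.5 against 266 CPM. Ptcra was 113 against 439 CPM and 61.0 against 267 CPM. Dntt, at 1092 against 1565 CPM and 783 against 1231 CPM, again differed least. The classes were set at unequal depth, with medians of 17885 UMIs in cycling DN3b γδ− and 12113 in cycling DN3a barcodes. They therefore do not fully match proliferation.

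The second comparison followed the γδ path, from DN3a to DN3b γδ+. The differences were -7.11 for Rag1 (-7.23 to -7.00), -5.95 for Rag2 (-6.18 to -5.73), -3.01 for Dntt (-3.03 to -3.0) and -5.81 for Ptcra (-5.89 to -5.73). All 4 were lower by at least 2-fold, as were 13.4% of 5975 genes, and none was higher, against 11.5% of all genes. The Rag1 ratio was the lowest of all those genes. The libraries differed in cycling share (6.16% and 80.8%), and the differences were smaller within each cycling class: -5.01 for Rag1, -4.81 for Rag2, -2.37 for Dntt and -4.21 for Ptcra in non-cycling barcodes, and -6.91, -5.44, -2.78 and -5.43 in cycling barcodes. The B barcode level given above bounds how low the values of Rag1, Rag2 and Ptcra can be read.
Set beside DN3b γδ−, a library with a similar share of cycling barcodes (88.4%, and 80.8% in DN3b γδ+), DN3b γδ+ differed by -3.44 for Rag1 (-3.56 to -3.33), -3.65 for Rag2 (-3.88 to -3.43), -2.08 for Dntt (-2.09 to -2.06) and -3.09 for Ptcra (-3.17 to -3.01). Here the background was small: 1.79% of 5415 genes were lower by at least 2-fold and 5.13% higher, while all 4 genes were lower. Rag2 was not among the genes of that background, having under 20 CPM in both libraries. Its levels lay within the B barcode intervals of both. All 4 were also lower within each state, in cycling barcodes (-3.92 for Rag1, -3.84 for Rag2, -2.13 for Dntt and -3.30 for Ptcra) and in non-cycling barcodes (-2.67, -3.61, -1.85 and -2.25). The cycling DN3b γδ+ levels of Rag1, Rag2 and Ptcra lay within the B barcode intervals, so the sizes of their differences are not ranked between states.

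The step from DN3b to DN4 was set out for each path. From DN3b γδ− to DN4 γδ−, Rag1 was higher by 0.95 (0.92 to 0.99) and Rag2 by 0.48 (0.42 to 0.55), Ptcra differed by 0.00 (-0.03 to 0.03) and Dntt by -0.19 (-0.20 to -0.18). None of the 4 passed 2-fold in either direction, as for nearly all genes (0.660% of 5148 lower and 0.524% higher). The Rag1 ratio was still among the highest, above the 99th percentile of 0.72 and with 30 genes above it. Rag2 lay above the 95th percentile of 0.40, but had under 20 CPM in both libraries and so was not among those genes. Rag1 was higher in non-cycling (141 against 97.2 CPM) and in cycling barcodes (65.8 against 33.5 CPM). Rag2 was higher only in the latter (15.5 against 10.8 CPM), since in non-cycling barcodes it was 22.3 against 25.8 CPM, a log2 difference of -0.21 (-0.54 to 0.12). The summed and the cycling levels of Rag2 lay within the B barcode intervals of both libraries, so its difference is not settled by the counting interval.
From DN3b γδ+ to DN4 γδ+, the differences were -1.79 for Rag1 (-2.18 to -1.43), -1.46 for Rag2 (-2.15 to -0.83) and -2.75 for Ptcra (-3.10 to -2.42), on 67, 23 and 77 UMIs in DN4 γδ+, and -0.08 for Dntt (-0.11 to -0.05). The first 3 lay under 20 CPM in both libraries and within the B barcode intervals. Within each cycling class the picture differed: in cycling barcodes Rag1 differed by -0.20 (-0.65 to 0.22), Rag2 by -0.32 (-1.16 to 0.44), Ptcra by -1.90 (-2.37 to -1.46) and Dntt by 0.08 (0.03 to 0.12), and in non-cycling barcodes by -5.52, -4.12, -4.97 and -0.79. The non-cycling values of Rag1, Rag2 and Ptcra rest on 11, 4 and 25 UMIs in DN4 γδ+. The cycling share was 80.8% in DN3b γδ+ and 18.4% in DN4 γδ+. After subtracting the B barcode level, Dntt turned to 0.47. B barcodes had medians of 3614 UMIs in DN3b γδ+ and 3711 in DN4 γδ+, against 15392 and 6418 in thymocyte barcodes. The part of depth in this turn was not tested. With all 4 counted, 3 were lower by at least 2-fold, beside 7.33% of 5827 genes, and none was higher, beside 10.5%.

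**Figure D3:**
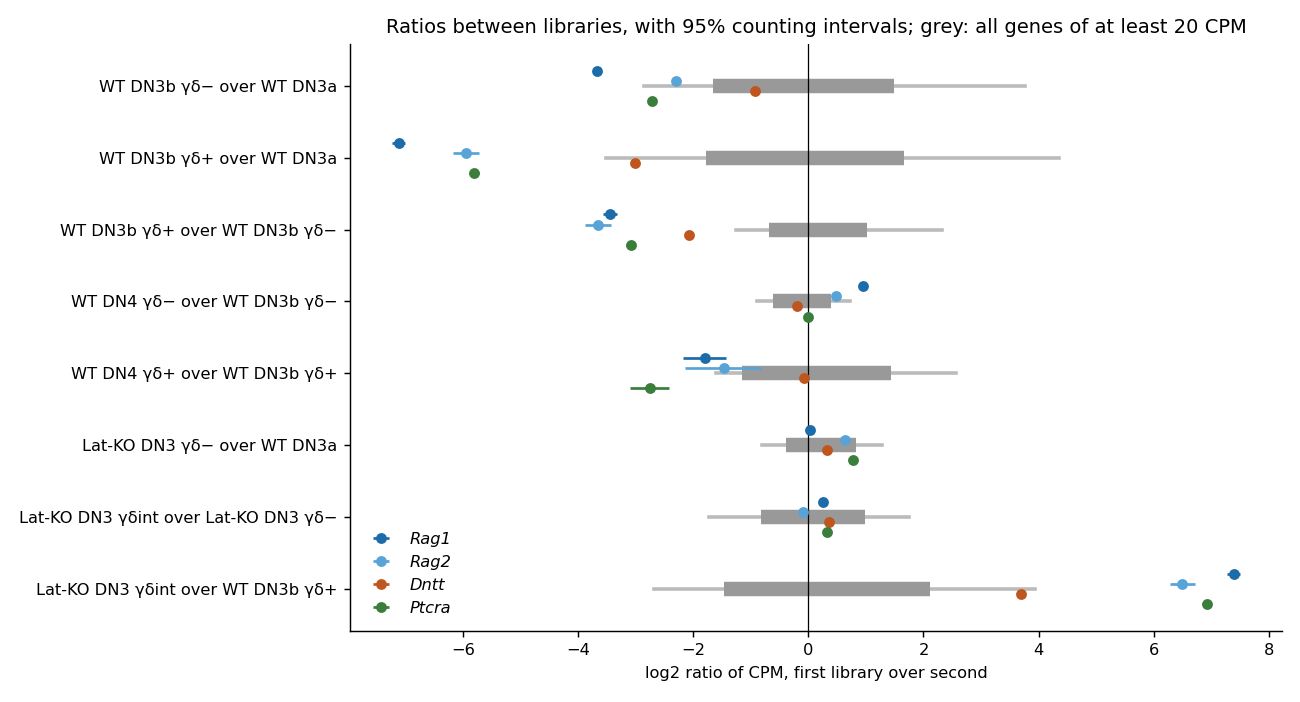
Log2 ratio of CPM between pairs of libraries for each gene (coloured points, with 95% counting intervals). The thick grey bar spans the 5th to 95th percentile and the thin bar the 1st to 99th percentile of all genes with at least 20 CPM in either library. All 4 genes lay left of the bar in DN3b γδ+ over DN3b γδ− and right of the thick bar in Lat-/- DN3 γδint over DN3b γδ+.

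The Lat-/- libraries address the levels of the genes in cells without LAT. Between Lat-/- DN3 γδ− and DN3a, Rag1 differed by 0.02 (-0.01 to 0.04), Rag2 by 0.64 (0.57 to 0.71), Dntt by 0.33 (0.31 to 0.34) and Ptcra by 0.78 (0.76 to 0.81). None passed 2-fold, as for most genes (0.557% of 6100 lower and 2.28% higher), and the median of all genes was itself 0.22. With TMM factors, which centre the bulk of the genes, Ptcra was still higher by 0.61, Rag2 by 0.47 and Dntt by 0.16, whereas Rag1 turned to -0.15. The genotype, the reporter and the bead depletion differ between these libraries and cannot be told apart.
Between Lat-/- DN3 γδint and Lat-/- DN3 γδ−, the differences were 0.25 for Rag1 (0.23 to 0.28), -0.10 for Rag2 (-0.17 to -0.03), 0.36 for Dntt (0.34 to 0.37) and 0.33 for Ptcra (0.30 to 0.35). The median of all 6534 genes was 0.23, and Rag2 lay below the 25th percentile of -0.06. None of the 4 passed 2-fold (3.95% of all genes lower and 4.64% higher). In non-cycling barcodes Rag1 differed by 0.55 (0.51 to 0.58), Ptcra by 0.52 (0.49 to 0.55) and Rag2 by 0.05 (-0.04 to 0.14), and in cycling barcodes by 0.10, 0.32 and -0.19. With TMM factors, Rag1 was at 0.01, Rag2 at -0.35, Dntt at 0.11 and Ptcra at 0.08. The low ribosomal-protein share of Lat-/- DN3 γδint moves with this comparison: without ribosomal-protein and mitochondrial genes in the total, the median of the 4 genes was 0.09 in place of 0.29, with Rag1 at 0.05, Rag2 at -0.30, Dntt at 0.15 and Ptcra at 0.12.
Against DN3b γδ+, the WT cells with a γδ TCR, Lat-/- DN3 γδint was higher by 7.39 for Rag1 (7.27 to 7.50), 6.49 for Rag2 (6.28 to 6.72), 3.70 for Dntt (3.68 to 3.71) and 6.92 for Ptcra (6.84 to 7.0). All 4 were higher by at least 2-fold, as were 24.8% of 6600 genes, and none was lower, against 7.41% of all genes. As the DN3b γδ+ sums of Rag1, Rag2 and Ptcra were not distinguishable from the B barcode level, the size of their differences is not settled by the counting intervals, and after subtraction of that level only Dntt (4.16) and Ptcra (7.18) could be compared. In non-cycling barcodes the differences were 5.60 for Rag1, 5.47 for Rag2, 3.09 for Dntt and 5.53 for Ptcra, and in cycling barcodes 7.13, 6.44, 3.65 and 6.69. The genotype, the reporter, the bead depletion and the surface level of the TCR all differ between these libraries and cannot be told apart. The cycling share was 23.3% against 80.8%.
Lat-/- DN3 γδint also had 1228 cycling barcodes, and in these Rag1 was at 309 CPM, Rag2 at 65.1, Dntt at 2244 and Ptcra at 640. Cycling DN3b γδ− barcodes had 33.5, 10.8, 783 and 61.0 CPM of the same genes, and cycling DN3a barcodes 266, 32.7, 1231 and 267 CPM.

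Cycling barcodes made up 6.16% of DN3a, 88.4% of DN3b γδ−, 83.6% of DN4 γδ−, 80.8% of DN3b γδ+, 18.4% of DN4 γδ+, 8.87% of Lat-/- DN3 γδ− and 23.3% of Lat-/- DN3 γδint. In every library but DN4 γδ+, all 4 genes were lower in cycling than in non-cycling barcodes, with Rag1 differing most and Dntt least. For Rag1 the log2 difference was -0.89 (-0.97 to -0.81) in DN3a, -1.54 (-1.64 to -1.43) in DN3b γδ−, -1.10 (-1.20 to -1.0) in DN4 γδ−, -2.79 (-3.09 to -2.48) in DN3b γδ+, -0.81 (-0.88 to -0.75) in Lat-/- DN3 γδ− and -1.26 (-1.31 to -1.21) in Lat-/- DN3 γδint. For Dntt it was -0.35, -0.48, -0.28, -0.75, -0.11 and -0.20 in the same order. Ptcra lay between them, at -0.71, -0.88, -0.46, -1.94, -0.58 and -0.78, as did Rag2, at -0.85, -1.26, -0.53, -1.49, -0.28 and -0.52.
Counted at 2-fold, none of the 4 was lower in DN3a (0.827% of all genes were) or in Lat-/- DN3 γδ− (1.18%). Rag1 alone was lower in DN4 γδ− (2.77% of all genes) and Lat-/- DN3 γδint (4.06%), Rag1 and Rag2 were in DN3b γδ− (1.14%), and Rag1, Rag2 and Ptcra were in DN3b γδ+ (0.881%). In the last case Rag1 and Rag2 were under 20 CPM in both states and so not among the genes of that share, and Rag2 rested on 16 UMIs in non-cycling barcodes. The non-cycling level of Ptcra there was above the B barcode interval, and those of Rag1 and Rag2 were within it.
DN4 γδ+ went the other way, and none of the 4 was lower by 2-fold there (3.94% of all genes were). Rag1 was 1.92 against 0.333 CPM, a log2 difference of 2.53 (1.57 to 3.62), on 51 and 11 UMIs. Such levels are within the B barcode level. Cycling barcodes were also deeper in every library, with medians of 12113 to 19996 UMIs against 4438.5 to 7658 UMIs, and the part of depth was not tested beyond thinning.

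**Figure D4:**
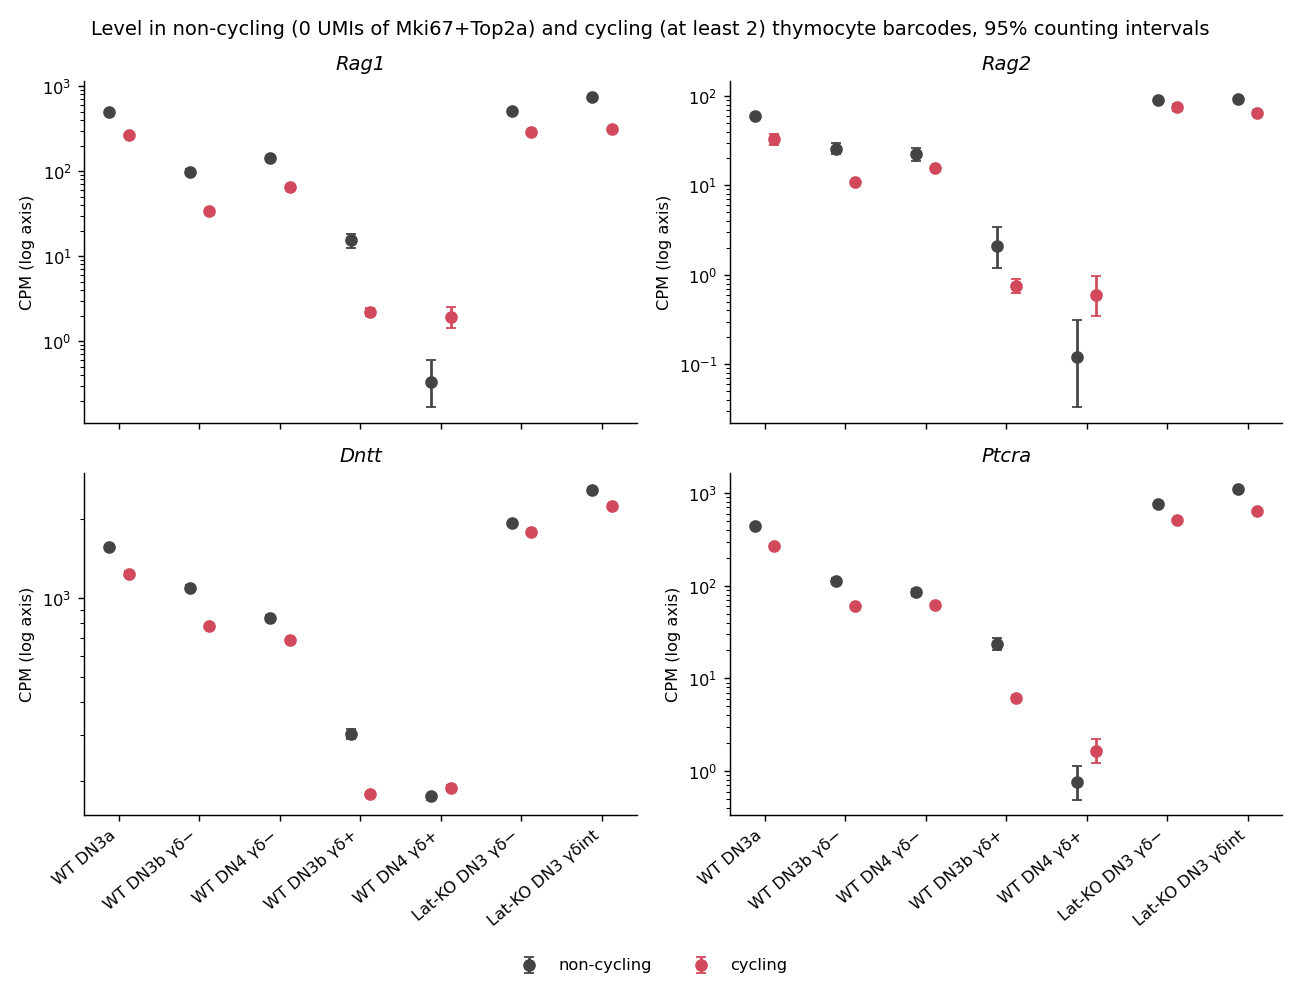
Level of each gene (CPM, log axis) in non-cycling (dark) and cycling (red) thymocyte barcodes of the 7 libraries, with 95% counting intervals. The red points lie below the dark points in every library but DN4 γδ+, and in those 6 libraries the gap is widest for Rag1 and narrowest for Dntt.

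The relation to proliferation was graded at its start. With barcodes thinned to 4000 UMIs and binned by their Mki67 and Top2a UMIs (0, 1, 2 to 4, 5 to 9, and 10 or more), Rag1 in DN3b γδ− was 68.2, 52.5, 31.7, 32.5 and 49.6 CPM. The last bin, of 1466 barcodes, was thus above the 2 before it, and Rag2 (16.1, 14.8, 10.8, 10.2 and 19.1 CPM) and Ptcra (83.5, 81.2, 64.3, 60.6 and 78.4 CPM) showed the same turn. In Lat-/- DN3 γδint, Rag1 was 742, 707, 383, 265 and 257 CPM over these bins, and Dntt was 2618, 2603, 2392, 2203 and 2022 CPM. Ptcra (1103, 1028, 717, 623 and 711 CPM) and Rag2 (93.7, 95.5, 61.7, 55.2 and 79.0 CPM) were higher in the last bin than in the bin before it there too, with overlapping intervals.

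The γδ− libraries were also divided by Cd8b1, a CD8 chain that thymocytes gain as they approach the double-positive stage, and by Il2ra, which encodes CD25. Cd8b1 was 11.6 CPM in DN3b γδ− and 98.8 in DN4 γδ−, although both had been depleted of CD8+ cells. In DN4 γδ−, Rag1 was 73.8 CPM (70.9 to 76.7) in the 8425 barcodes without Cd8b1, 98.4 (92.8 to 104) in those with 1 or 2 UMIs, 130 (113 to 150) with 3 to 5, and 304 (202 to 440) in the 23 barcodes with 6 or more. Rag2 went from 14.5 to 20.7, 38.7 and 87.0 CPM over the same bins, Ptcra from 63.8 to 78.3, 103 and 130 CPM, and Dntt from 711 to 734, 789 and 1120 CPM.
Each gene was thus higher in DN4 γδ− barcodes with more Cd8b1, while the cycling share was 88.7%, 90.6%, 86.7% and 73.9% over these bins, whose part was not tested. The last bin held 12 UMIs of Ptcra (67.4 to 228 CPM) and 8 of Rag2 (37.5 to 171). These intervals overlapped those of the bin before it (86.9 to 120 and 29.3 to 50.2). For Dntt the intervals of neighbouring bins overlapped up to the bin of 3 to 5 UMIs (702 to 720, 719 to 749 and 744 to 835). In DN3b γδ−, barcodes with 1 or 2 UMIs of Cd8b1 had 68.4 CPM of Rag1 against 40.7 without it and 93.0 against 68.7 CPM of Ptcra, but less Dntt, 791 (759 to 824) against 844 (837 to 851). The difference in Rag1 between the libraries was also present without Cd8b1: in barcodes with 0 UMIs of it, Rag1 was 73.8 CPM in DN4 γδ− and 40.7 (39.2 to 42.3) in DN3b γδ−. By Il2ra (0, 1 to 2, and 3 or more UMIs), Ptcra in DN3b γδ− was 61.3, 84.7 and 141 CPM and Rag1 37.8, 48.9 and 83.7 CPM, while the cycling share was 91.3%, 89.8% and 78.9%. The double-positive markers Cd4 and Cd8a stayed low in DN4 γδ− (0.657 and 7.93 CPM), and their part in the Rag1 level was not tested.

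**Figure D5:**
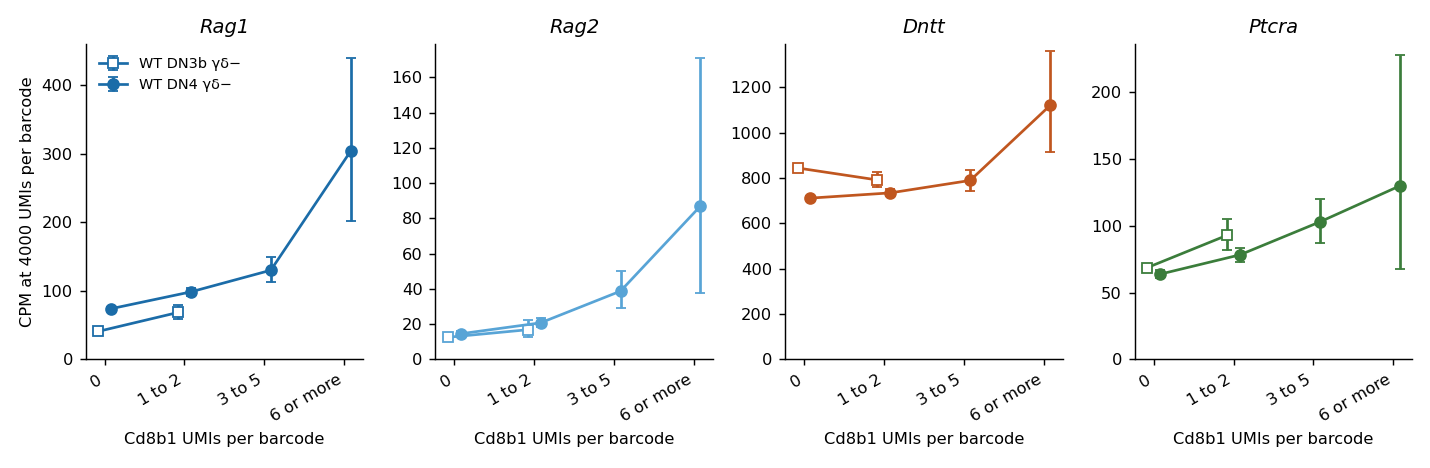
Level of each gene (CPM at 4000 UMIs per barcode, linear axes from 0) against the Cd8b1 UMIs of the barcode in DN3b γδ− (open squares) and DN4 γδ− (filled circles), with 95% counting intervals; bins under 20 barcodes are left out. Rag1 in DN4 γδ− goes from 73.8 CPM without Cd8b1 to 304 CPM in the 23 barcodes with 6 or more UMIs.

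In DN3b γδ+ the barcodes with Rag1 and those with Ptcra overlapped. Ptcra was found in 53.2% of the 156 barcodes with Rag1 and in 2.05% of those without.
The 83 barcodes with both genes had 1497 CPM of Dntt (1368 to 1635), close to the DN3a level, while the 10476 barcodes with neither had 174 (170 to 178). They also had more Rag2 (42.2 against 0.549 CPM), Il2ra (455 against 29.8 CPM), Notch1 (389 against 42.3 CPM) and Arpp21 (804 against 74.7 CPM). Cd5, which TCR signals are known to induce, was 27.1 CPM (12.4 to 51.5) in them against 143 (139 to 146), and Id3, an inhibitor of E proteins, was 66.3 (41.5 to 100) against 354 (348 to 359). They were less often cycling (37.3% against 85.5%) and shallower (medians of 6574 and 16800.5 UMIs), and 2.41% of them had doublet scores among the top 8% of their library, against 8.00%. The parts of the sort, of doublets and of depth in this were not tested.

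Among the partners and regulators of the 4 genes, lists of known genes were counted by the same 2-fold rule. In DN3b γδ− over DN3a, 1 of 11 measured recombination partners was lower (Paxx, a cofactor of end joining, 21.7 against 44.2 CPM) and 2 were higher, the chromatin proteins Hmgb2 (1644 against 379 CPM) and H2afx (442 against 84.8 CPM), beside 11.4% of all genes. In DN3b γδ+ over DN3a, 2 were lower, the Ku subunit gene Xrcc6 (68.0 against 259 CPM) and the ligase gene Lig4 (9.84 against 42.8 CPM), and 3 were higher, namely Hmgb1, Hmgb2 and H2afx, beside 11.5% of all genes. Xrcc6 and Lig4 were also the 2 of 8 that were lower in DN3b γδ+ than in DN3b γδ− (1.79% of all genes were). Listed partners under 20 CPM in both libraries were not counted. Among them, Dclre1c was 19.8 CPM in DN3a, 4.84 in DN3b γδ− and 4.73 in DN3b γδ+. Others went the other way, with Polm at 0.596, 1.74 and 2.86 CPM and Poll at 3.09, 4.58 and 7.61 CPM, while Nhej1 was within 2-fold. Most measured partners were within 2-fold, and in both comparisons with DN3a the share that was lower was near that of all genes (14.6% and 13.4%). Of the same 11, 3 were higher in Lat-/- DN3 γδint than in DN3b γδ+ (Xrcc6 at 530, Lig4 at 50.4 and Trp53bp1 at 30.5 CPM, beside 24.8% of all genes) and Hmgb2 was lower (870 against 2601 CPM).
Of the 6 genes of the complex that pre-Tα joins (CD3 chains and TCR β constant regions), 2 were lower in DN3b γδ− than in DN3a (14.6% of all genes were), Cd3d (477 against 1710 CPM) and Cd3g (730 against 3208 CPM). The same 2 were lower in DN3b γδ+ (13.4% of all genes were). Trbc1 and Trbc2, the constant regions of the TCR β chain, had 1281 and 2133 CPM in DN3b γδ− and 1364 and 2013 CPM in DN3a.
Of 17 measured regulators, 7 were lower and 1 was higher in DN3b γδ− than in DN3a, beside 14.6% and 11.4% of all genes. The lower ones were Notch1 (124 against 464 CPM) and Notch3 (15.1 against 152 CPM), receptors of the pathway that acts before β-selection, Runx1, Myb, Bcl11b, Gfi1 and Id2, and the higher one was Id3 (91.7 against 36.1 CPM). In DN3b γδ+ over DN3a, 7 were lower and 2 higher, beside 13.4% and 11.5% of all genes, among them Notch3 at 2.30, Tcf12 (an E protein gene) at 95.3 against 262, and Id3 at 350 CPM. Lat-/- DN3 γδint over DN3b γδ+ had 8 higher and 2 lower (24.8% and 7.41% of all genes), with Notch1 at 510 and Notch3 at 166 CPM and Id3 at 44.3 CPM. Between DN3b γδ+ and DN3b γδ−, 2 of 16 were lower (Notch1 and Satb1) and 4 higher (Gata3, Lef1, Id2 and Id3), beside 1.79% and 5.13% of all genes.
Of the stage genes, 3 of 7 were lower in DN3b γδ− than in DN3a, namely Il2ra (97.1 against 620 CPM) and the Notch targets Hes1 (77.6 against 573 CPM) and Dtx1 (12.7 against 71.9 CPM), and 3 were higher, namely Tfrc, Mki67 and Top2a, beside the same 14.6% and 11.4%. Tfrc encodes CD71, by which these cells were sorted, so its direction goes with the gate and is no separate result. From DN3b γδ− to DN4 γδ−, Il2ra was lower (12.1 CPM), which goes with the CD25 gate, and Cd8b1 was higher. Cd5 was at 130 CPM in DN3b γδ+ and at 1.69 CPM in Lat-/- DN3 γδint.
In DN4 γδ− over DN3b γδ−, 0 of 8 recombination partners, 0 of 6 complex genes and 0 of 15 regulators passed 2-fold, beside 0.660% of all genes lower and 0.524% higher. In Lat-/- DN3 γδ− over DN3a, 1 of 11 partners was higher (H2afx, 172 against 84.8 CPM) and 1 of 17 regulators lower (Id3, 16.6 against 36.1 CPM), beside 2.28% of all genes higher and 0.557% lower. Between Lat-/- DN3 γδint and Lat-/- DN3 γδ−, 2 of 11 partners (Hmgb2 and H2afx) and 1 of 17 regulators (Id3) were higher, beside 4.64% of all genes. From DN3b γδ+ to DN4 γδ+, 6 of 17 regulators were higher (10.5% of all genes were), such as Foxo1, a factor known to act on the recombinase genes, at 70.9 against 12.9 CPM, while Rag1 had 0.959 CPM.

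The genes whose pattern over the 7 libraries was nearest were sought among 7030 genes with at least 20 CPM in any library, by the root mean square distance of centred log2(CPM + 1). For Ptcra these were Rag1 (0.43), Slc5a9 (0.53), Fam163b (0.83), Rab44 (0.84) and Bst1 (0.84), and for Rag1 they were Ptcra (0.43), Slc5a9 (0.82), Rag2 (0.82), Fam163b (0.88) and Rab44 (0.97). Genes near to Rag2 were Fam163b (0.23), Nwd1 (0.49), Tenm1 (0.59) and Smim5 (0.59). Dntt was nearest to Arpp21 (0.17), B230118H07Rik (0.20), Rnf157 (0.21), Fbln2 (0.23) and Degs2 (0.27).
Among the members themselves, Ptcra and Rag1 were nearest to each other and Dntt was at 0.93 from Rag2 and at 1.70 and 1.72 from Ptcra and Rag1. These distances describe 7 libraries that share their chemistry, of which the γδ+ ones are near the B barcode level for 3 of the genes. The γδ− WT libraries are within that level for Rag2. B230118H07Rik shares 80 bases of exon (chr2:101649422-101649501) with the first exon of Rag1 on the same strand, so its counts and those of Rag1 are uncertain there.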

How the data were processed

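UMI counts of mouse thymocytes were analysed in 7 single-cell libraries (10x 3′ v3 chemistry, 1 per group). The deposited UMI counts, 1 matrix of genes by barcodes per library, were made by the authors with Cell Ranger (4.0.0 per the file headers, 5.0.1 per the submitters' processing notes) on mm10 with the edited Trdc reporter added, and are neither scaled nor corrected for free RNA. Gene models came from GENCODE M21.

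Quality limits followed the study. B barcodes had at least 10 UMIs of Cd79a, Cd79b and Ms4a1 and at least 2 times their UMIs of Cd3d, Cd3e and Cd3g. The 6877 quality-passed barcodes that fell in neither class were left out. UMIs were summed per gene and class, divided by the class total and scaled to CPM. Levels have exact Poisson, shares exact Clopper-Pearson and log2 ratios exact conditional binomial 95% intervals, which cover counting error only. No test was possible. All genes with at least 20 CPM in either library formed the background, and a gene was counted past 2-fold. Doublets were scored with scrublet (scanpy 1.11.5, expected share 8%), whose own threshold marked 1034 barcodes in DN3b γδ+ and at most 1 elsewhere, so that none were removed in the main values. The work used R 4.3.3 with edgeR 4.0.16 (TMM factors only), and scipy 1.17.1, pandas 2.3.3 and numpy 2.4.6 under Python 3.11.15, and the ratio method was tested on simulated data.

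The named genes are the 4 members, examples from the lists of partners, regulators, stage genes and cell type markers, Lat, and for each member the 5 nearest genes, of which 1 for Rag2 is not reported here. The members and lists were chosen with earlier results of these data known. Alternatives changed the scaling, the genes in the total, the quality filter, the T cell and B cell limits, free RNA, doublets, shared barcodes, the cycling limit, depth and the measure of likeness.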

Additional observations from a re-analysis of the deposited data

Results flagged for a closer look

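From DN3b to DN4 the summed levels of the recombinase genes differed in opposite directions on the paths. Rag1 differed by 0.95 on the log2 scale from DN3b γδ− to DN4 γδ− and by -1.79 from DN3b γδ+ to DN4 γδ+, and Rag2 by 0.48 and -1.46. With 1 library per group the difference between the paths was not tested. In cycling barcodes alone the γδ+ intervals took in 0, at -0.20 (-0.65 to 0.22) for Rag1 and -0.32 (-1.16 to 0.44) for Rag2, while in non-cycling barcodes they were at -5.52 (-6.56 to -4.63) and -4.12 (-6.16 to -2.49). On the γδ− path Rag2 was at -0.21 (-0.54 to 0.12) in non-cycling barcodes, so its directions were not opposite in that state. Its summed levels on that path lay within the B barcode intervals. The summed γδ+ values rest on 67 and 23 UMIs in DN4 γδ+, of which cycling barcodes held 51 and 16 and non-cycling barcodes 11 and 4. They are within the level of the B barcodes.

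Cycling barcodes of DN4 γδ+ had more of every gene than its non-cycling barcodes, unlike those of the other 6 libraries. The log2 differences were 1.13 for Ptcra, 2.53 for Rag1, 2.32 for Rag2 and 0.11 for Dntt. The difference from the other libraries was not tested. The first 3 values rest on 44, 51 and 16 UMIs in cycling and 25, 11 and 4 UMIs in non-cycling barcodes, and the sign for Dntt turned at equal depth.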

How the results depend on the processing

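Counting error was the only error that 1 library per group allows, and library preparation and sort could not be told apart from the groups. The WT libraries shared a pool of thymi, and the animals could not be told apart from the genotype. No paired analysis was possible because each group has a single library. The median log2 difference of the 4 genes moved with the scaling, as TMM factors shift every gene by 0.36 in DN3b γδ− over DN3a, 0.32 in DN3b γδ+ over DN3a, -0.04 in DN3b γδ+ over DN3b γδ−, 0.00 in DN4 γδ− over DN3b γδ−, -0.30 in DN4 γδ+ over DN3b γδ+, -0.17 in Lat-/- DN3 γδ− over DN3a, -0.25 in Lat-/- DN3 γδint over Lat-/- DN3 γδ− and -0.74 in Lat-/- DN3 γδint over DN3b γδ+. In DN3b γδ− over DN3a the median was -2.51, -2.15 with TMM factors, -2.59 without ribosomal-protein and mitochondrial genes in the total and -3.11 after subtracting the B barcode level. In DN3b γδ+ over DN3a it was -5.88, then -5.56, -6.06 and -4.89 (2 genes left after subtraction). After subtraction it was also -2.65 against -3.27 in DN3b γδ+ over DN3b γδ− (2 genes left) and 0.33 against 0.24 in DN4 γδ− over DN3b γδ−. In DN4 γδ+ over DN3b γδ+ it turned from -1.63 to 0.47, where Dntt was the 1 gene left and itself turned from -0.08 to 0.47. In Lat-/- DN3 γδ− over DN3a it was 0.48, 0.31 with TMM factors and 0.35 without those genes in the total. In Lat-/- DN3 γδint over Lat-/- DN3 γδ− it was 0.29, then 0.04, 0.09 and 0.16 after subtraction, and over DN3b γδ+ it was 6.71, then 5.96, 6.54 and 5.67 (2 genes left). The part that the lower depth of the B barcodes had in the subtracted values was not tested. The cycling difference in DN3a was -0.78, -1.22 with cycling set at 4 UMIs and -0.58 at 4000 UMIs per barcode, and in Lat-/- DN3 γδ− it was -0.43 and -0.52 with 4 UMIs. Other changes of sign were Rag2 in non-cycling barcodes of DN4 γδ− over DN3b γδ− (-0.21) and of Lat-/- DN3 γδint over Lat-/- DN3 γδ− (0.05), Dntt in cycling barcodes of DN4 γδ+ over DN3b γδ+ (0.08), and Dntt in cycling over non-cycling barcodes of DN4 γδ+ at 4000 UMIs (-0.05). Their causes were not tested. Of 311 single-gene values between libraries under an alternative, 180 stayed within the counting interval, 127 moved past it in the same direction or without a call, and 4 turned. Of 55 by cycling state, 28, 26 and 1 did. The limit of 5 B cell UMIs, leaving out shared barcode sequences, and the division by Cd8b1, Il2ra, Mki67 and Top2a, or Ptcra with Rag1 were added after seeing the data. By Pearson r the nearest gene to Ptcra was B230118H07Rik (0.994), to Rag1 and Rag2 each other (0.996), and to Dntt Dgke (0.995).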

Other observations

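Barcodes without Ptcra and Rag1 were also present where most barcodes had them. In DN3a, 877 barcodes at 4000 UMIs had neither gene and 3718 had both. Those with neither had less Rag2 (17.4 against 75.2 CPM), Il2ra (438 against 712 CPM), Notch1 (296 against 539 CPM) and Notch3 (66.7 against 197 CPM), and more Id3 (88.4 CPM, 78.8 to 98.8, against 18.5, 16.4 to 20.8) and Cd5 (17.7 against 1.14 CPM). Dntt was similar in both, at 1456 and 1546 CPM. Of those with neither, 15.2% were cycling, against 4.22%, and their median depth was 9119 against 7101.5 UMIs.

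In Lat-/- DN3 γδint, 292 barcodes had neither gene and 3332 had both. Those with neither had 15.4 against 103 CPM of Rag2, 357 against 742 CPM of Il2ra and 81.3 against 29.4 CPM of Id3, while Cd5 was 5.14 (1.89 to 11.2) against 0.900 CPM and Dntt was 2616 against 2514 CPM. Of those with neither, 55.5% were cycling, against 17.7%, and their median depth was 9880.5 against 5744 UMIs.

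In Lat-/- DN3 γδ−, 245 barcodes had neither gene and 4364 had both. Rag2 (35.7 against 95.7 CPM) and Il2ra (733 against 919 CPM) were again lower and Id3 higher (27.6 against 12.5 CPM) in those with neither. Unlike in DN3a, Cd5 was 2.04 CPM (0.247 to 7.37) against 1.72 (1.16 to 2.45), and Dntt was 2308 (2214 to 2405) against 1860 (1840 to 1880). Of those with neither, 17.1% were cycling, against 7.13%, and their median depth was 8071 against 6901.5 UMIs. Cycling barcodes of these libraries had less Ptcra and Rag1, so the higher cycling shares of barcodes with neither restate that difference. The part of depth in them was not tested.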
